A study of Mus musculus with 6 samples.

Results

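The enzymes with which lung tissue oxidizes, reduces, hydrolyzes and conjugates foreign compounds were followed in tumors grown in mouse lungs with and without interstitial pneumonia (IP). The set was taken by gene symbol. It held every protein-coding gene of the deposited tables whose symbol follows the naming of cytochrome P450 families 1 to 4 (Cyp), flavin monooxygenases (Fmo), aldehyde dehydrogenases (Aldh), aldehyde oxidases (Aox), epoxide hydrolases (Ephx), carboxylesterases (Ces), carbonyl reductases (Cbr), aldo-keto reductases of family 1 (Akr1), sulfotransferases (Sult) or UDP-glucuronosyltransferases of families 1 and 2 (Ugt). These were 137 genes of 31130 in the tables. The symbol alone decided, so enzymes with other name patterns, such as Aldh2, the glutathione transferases and some glucuronosyltransferases, were outside the set, and enzymes of ordinary amino acid and folate metabolism that carry an Aldh name were inside it.

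Tumor tissue came from wild-type C57BL/6J mice of 6 to 8 weeks. On day 14 they had received cells of the Lewis lung carcinoma (LLC) in the lung. The injected LLC cells, a cell line of mouse origin, carry enhanced green fluorescent protein. The LC group (lung cancer alone, 3 tumors) had no IP. The IP + LC group (3 tumors) had been given bleomycin, a cytotoxic antibiotic that scars the lung, at 2.0 mg per kg body weight through the airway 14 days before the cells. Tumors of both groups were collected on day 21, and RNA was sequenced from the whole tissue, so each library mixes LLC cells with host cells. The comparison asks how the expression of these enzymes differs in a tumor that grows in a lung with IP, and it carries the bleomycin given to 1 group only.

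Metabolism of foreign compounds is usually divided into phases. Phase I enzymes add or expose a reactive group by oxidation, reduction or hydrolysis, and phase II enzymes attach sulfate, glucuronic acid or other small groups that make the product soluble. The liver is the main site, but the lung has its own pattern, with much of its P450 activity in club cells of the bronchioles, type 2 alveolar cells and endothelium, where compounds such as naphthalene can be turned into toxic products.

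The libraries held 592733 UMIs in LC replicate 1 and between 1336919 and 1631066 UMIs in the other 5 tumors. A UMI (unique molecular identifier) marks 1 mRNA molecule near its 3′ end, so that levels in CPM (UMIs scaled to a common library total, with TMM factors) can be compared between genes without division by transcript length. A count of 3 UMIs, taken here as the lowest usable level, was worth 5.17 CPM in LC replicate 1 and 1.75 to 2.54 CPM elsewhere. Values below stand in the order of replicates 1, 2 and 3, and group means are given ± SD over 3 tumors. The 6 samples are separate tumors in the labels, and nothing ties a number in 1 group to the same number in the other.

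The labels name the cell type as lung cancer cells, but all 6 libraries also held RNA of normal lung cells. Scgb1a1, the secretoglobin that defines club cells, stood at 41682, 44321 and 38371 CPM in the LC tumors and at 4722, 2678 and 5961 CPM in the IP + LC tumors. Sftpc, surfactant protein C of type 2 alveolar cells, stood at 23958, 27792 and 30648 CPM and at 8024, 4338 and 6677 CPM in the same order. Both genes were higher in every LC tumor than in any IP + LC tumor. Hepatocyte markers, which would mark stray liver RNA, were nearly absent, with 3 to 14 UMIs in the IP + LC tumors and 2 to 8 UMIs in the LC tumors for the 8 measured genes together. In bulk tissue, fewer cells of a type and less RNA per cell cannot be told apart.

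As a group, the enzymes were far scarcer in the IP + LC tumors. Their UMIs made up 1.03%, 1.55% and 1.30% of all UMIs in the LC tumors and 0.375%, 0.250% and 0.355% in the IP + LC tumors (95% Wilson intervals, for counting error only, within 0.0257 percentage points of each value). Summed over the set, the mean level was 14058 ± 3190 CPM in LC and 3159 ± 681 CPM in IP + LC tumors, a ratio of 4.45. The lowest LC tumor, replicate 1 at 10533 CPM, was above the highest IP + LC tumor, replicate 1 at 3650.1 CPM.

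Of the 137 genes, 50 had enough UMIs to be tested. In the IP + LC group, 33 of these were lower, 3 were higher and 14 did not pass an adjusted p of 0.1 in the quasi-likelihood test of edgeR, adjusted over all 11240 genes tested. When IP + LC replicate 2 or LC replicate 3 was left out, 1 enzyme rose. Over all genes tested, 19.6% were lower and 16.8% were higher, against 66% and 6% of the tested enzymes. These shares of all genes rested in part on single tumors. They were 11.6% lower and 7.61% higher without IP + LC replicate 2, where 29 enzymes were lower, and 28.7% and 28.3% without LC replicate 1, where 38 enzymes were lower. Leaving out a tumor also changed which enzymes were tested, so 29 and 38 are not counts out of the same 50. The share of all genes that was higher was 9.25% when IP + LC replicate 1 was left out, 11.1% when replicate 3 of that group was, and 8.81% when LC replicate 2 was. With library size alone as the scaling, 16.0% of all genes were lower and 22.4% were higher, and 32 and 5 of the enzymes were. The median log2 fold change (IP + LC against LC) of the tested enzymes was −1.26, and that of all tested genes was 0.02. Among the enzymes tested, 35 had all 3 IP + LC tumors below all 3 LC tumors and 4 had them above, with 11 overlapping. Over all genes tested, 21.5% had every IP + LC tumor below every LC tumor and 21.6% above, 43.1% in all. Of the 50, 28 (56%) were called at least 2-fold lower, against 13.5% of all tested genes. A gene abundant in the LC group alone can pass the count filter only because it is high there, so the counts describe these 50 genes and not the whole set. With at least 10 UMIs required in every library, 37 enzymes were left, of which 25 were lower and 2 higher (67.6% lower), against 19.4% lower and 16.7% higher among the 7558 genes of that kind. With no filter, 37 of the 137 enzymes were lower, against 8.51% lower and 7.87% higher among 29423 genes.

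**Figure D1:**
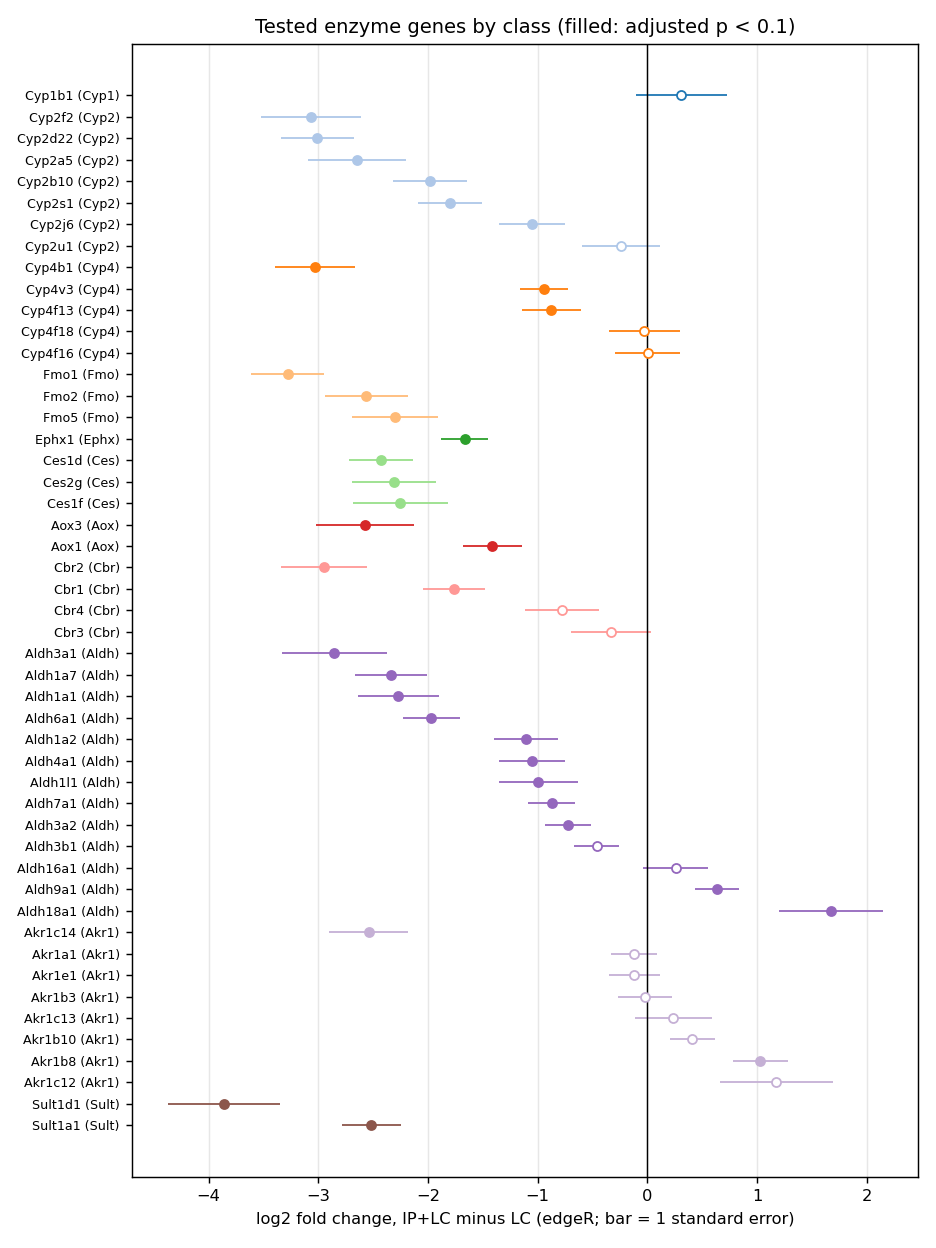
Log2 fold change (IP + LC against LC, x axis) of 49 of the tested enzymes with bars of 1 SE, ordered and colored by enzyme class (y axis), with filled symbols for an adjusted p below 0.1. The 32 enzymes shown that fell spread over all tested classes but Cyp1, while the 3 that rose are Akr1b8, Aldh9a1 and Aldh18a1.

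The enzymes on which the results turn have the positions given here in mouse build GRCm38 (GENCODE M21), and the 250 bases before the start, as RefSeq gives them (build GRCm38.p6), are shown for the 2 most abundant enzymes that fell and for the 3 that rose. Cbr2 lies at chr11:120729489-120732114 on the minus strand and Cyp2f2 at chr7:27119909-27133660 on the plus strand. Akr1b8 lies at chr6:34354119-34368463 and Aldh9a1 at chr1:167349991-167368532, both on the plus strand, and Aldh18a1 lies at chr19:40550257-40588463 on the minus strand. The windows are chr11:120732022-120732271 (minus), chr7:27119705-27119954 (plus), chr6:34353896-34354145 (plus), chr1:167349741-167349990 (plus) and chr19:40588464-40588713 (minus). Capitals mark GCGTG, the core of the site bound by the aryl hydrocarbon receptor with ARNT, and TGACNNNGC, the core of the antioxidant response element bound by NRF2, each searched on both strands, so that GCGTG on the minus strand reads CACGC.
Cbr2: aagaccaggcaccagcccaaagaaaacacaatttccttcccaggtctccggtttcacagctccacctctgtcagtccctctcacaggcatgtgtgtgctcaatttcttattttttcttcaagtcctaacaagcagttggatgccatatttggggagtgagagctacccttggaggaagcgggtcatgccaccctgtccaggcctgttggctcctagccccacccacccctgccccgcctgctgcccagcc
Cyp2f2: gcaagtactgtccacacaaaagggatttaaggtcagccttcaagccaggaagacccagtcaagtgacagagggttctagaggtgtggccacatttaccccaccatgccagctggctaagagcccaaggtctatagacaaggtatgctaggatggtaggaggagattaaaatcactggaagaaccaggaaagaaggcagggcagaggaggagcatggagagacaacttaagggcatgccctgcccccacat
Akr1b8: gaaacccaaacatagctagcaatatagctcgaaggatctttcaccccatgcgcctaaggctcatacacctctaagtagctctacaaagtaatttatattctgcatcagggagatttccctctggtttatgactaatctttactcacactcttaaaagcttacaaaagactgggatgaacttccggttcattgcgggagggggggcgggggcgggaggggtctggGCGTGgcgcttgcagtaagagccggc
Aldh9a1: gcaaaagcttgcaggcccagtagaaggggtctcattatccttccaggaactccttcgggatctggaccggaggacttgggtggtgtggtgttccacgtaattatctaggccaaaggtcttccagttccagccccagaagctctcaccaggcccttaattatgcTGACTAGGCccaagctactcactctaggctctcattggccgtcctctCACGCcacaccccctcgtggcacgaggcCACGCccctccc
Aldh18a1: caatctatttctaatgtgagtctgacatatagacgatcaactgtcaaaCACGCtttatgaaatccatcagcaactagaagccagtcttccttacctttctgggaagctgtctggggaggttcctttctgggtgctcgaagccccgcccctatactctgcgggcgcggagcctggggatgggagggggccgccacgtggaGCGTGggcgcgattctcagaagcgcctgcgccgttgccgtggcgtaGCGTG

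Neither motif was found in the windows of Cbr2 and Cyp2f2. GCGTG began 26 bases before the start in Akr1b8, at 40 and 12 bases on the minus strand in Aldh9a1, and at 202 (minus strand), 51 and 5 bases in Aldh18a1. TGACNNNGC was found once, 87 bases before the start of Aldh9a1, and no match overlapped another. RefSeq windows were found for 114 of the 137 enzymes. GCGTG was in the window of 9 of the 26 matched enzymes that fell (34.6%), of 3 of the 3 that rose, of 2 of 12 that were tested and did not pass and of 7 of 73 that were not tested, against 30.9% of all 27025 genes. TGACNNNGC was in 1 of 26 that fell, 1 of 3 that rose, 1 of 12 that did not pass and 0 of 73 not tested, against 11.5% of all genes. The share of enzymes that fell with GCGTG was close to that of all genes. A letter match is no evidence of binding, and its absence from this window says nothing of the factor.

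Cytochrome P450 of family 2, which oxidize many drugs and solvents, gave 34 genes, of which 7 were tested and 6 fell. Cyp2f2, the enzyme that activates naphthalene in mouse club cells, was the most abundant P450. It stood at 1812, 4134 and 3259 CPM in the LC tumors and at 475, 172 and 454 CPM in the IP + LC tumors. The groups were far apart, with LC replicate 1 lowest of its group and IP + LC replicate 2 lowest of all. Cyp2f2 fell from 3068 ± 1173 to 367 ± 169 CPM (log2 fold change −3.07, SE 0.45, adjusted p = 0.00221). Cyp2d22, of the debrisoquine hydroxylase subfamily, was far less abundant and fell too, with 25.8, 45.4 and 35.6 CPM in the LC tumors and 5.08, 4.67 and 3.63 CPM in the IP + LC tumors (log2 fold change −3.01, SE 0.33, adjusted p = 0.000918). Its IP + LC values rest on only 7, 8 and 5 UMIs, and all were below the LC tumors.

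The other P450 genes of family 2 that fell were Cyp2a5, a coumarin hydroxylase, Cyp2b10, the phenobarbital-inducible form, Cyp2s1, a form of epithelial surfaces, and Cyp2j6, an arachidonic acid epoxygenase. Cyp2a5 stood at 41.3, 124 and 87.3 CPM in the LC and 9.43, 9.92 and 22.5 CPM in the IP + LC tumors, and it changed by −2.64 (adjusted p = 0.00382) on the log2 scale. Cyp2b10 stood at 127, 102 and 179 CPM and 42.1, 19.8 and 42.1 CPM, a log2 fold change of −1.98 (adjusted p = 0.00381). In contrast to Cyp2f2 and Cyp2a5, Cyp2b10 was not lowest in replicate 1 among the LC tumors, but none of these 3 genes overlapped between the groups. The log2 fold change was −1.80 (adjusted p = 0.00314) for Cyp2s1 and −1.05 (adjusted p = 0.031) for Cyp2j6. Cyp2u1, a fatty acid hydroxylase, was the only tested member of the family that did not pass (log2 fold change −0.24, adjusted p = 0.652).

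Cyp2f2 made up most of the family in each tumor, and less of it in the IP + LC group. Its share of the UMIs of all Cyp2 genes was 86.6%, 90.6% and 87.4% in the LC tumors and 81%, 69.3% and 78.7% in the IP + LC tumors. The summed level of the family fell from 3462 ± 1258 to 471 ± 192 CPM, a ratio of 7.36. The 4 tested genes of the chromosome 7 cluster of 13 Cyp2 genes (chr7:25802475-27158668), which are Cyp2s1, Cyp2b10, Cyp2a5 and Cyp2f2, all fell.

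Of family 4, whose members hydroxylate fatty acids at the chain end, 11 genes were in the tables, 5 were tested and 3 fell. Cyp4b1, a lung P450 that also activates plant furans, stood at 459.8, 693 and 674 CPM in the LC tumors and at 115, 43.2 and 66.8 CPM in the IP + LC tumors. The lowest LC tumor was 4.01 times the highest IP + LC tumor. Cyp4b1 fell from 609 ± 129 to 74.9 ± 36.4 CPM (log2 fold change −3.03, SE 0.37, adjusted p = 0.0012). Cyp4v3 fell from 34.4, 36.8 and 43.2 CPM to 18.9, 22.2 and 18.9 CPM (log2 fold change −0.94, SE 0.22, adjusted p = 0.0139), and its groups stood apart with little spread. It did not pass with counts thinned to the smallest library (−0.75, adjusted p = 0.116). Cyp4f13 fell by 0.88 on the log2 scale (adjusted p = 0.0409). Cyp4f16 and Cyp4f18, the leukotriene B4 hydroxylase of neutrophils, gave 0.00 (adjusted p = 0.998) and −0.03 (adjusted p = 0.961). Cyp4b1 went from 76.3%, 85% and 83.9% of the UMIs of family 4 in the LC tumors to 59.4%, 29.5% and 44.4% in the IP + LC tumors.

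Families 1 and 3 were hardly seen. Cyp1b1, which oxidizes polycyclic hydrocarbons and estradiol and is usual in stromal cells, was the only tested gene of its family, with 8.61, 11 and 6.78 CPM in the LC and 16, 10.5 and 6.54 CPM in the IP + LC tumors (log2 fold change 0.31, SE 0.41, adjusted p = 0.617). Its groups overlapped, and IP + LC replicate 1 was the highest. Cyp1a1, the classical target of the aryl hydrocarbon receptor, had 1, 1 and 5 UMIs in the LC and 1, 0 and 0 UMIs in the IP + LC tumors, too few for a test. None of the 4 genes of family 3, the main drug-oxidizing P450 of liver and gut, was tested. Cyp3a11 had 7 UMIs in LC replicate 3, 1 UMI in IP + LC replicate 2 and 0 in the other tumors, and Cyp3a13 had 2, 8 and 5 and 2, 3 and 1 UMIs.

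Flavin monooxygenases oxidize nitrogen and sulfur atoms of drugs. Fmo2, the main form of mouse lung, stood at 274, 733 and 679.6 CPM in the LC tumors and at 117, 73 and 96.6 CPM in the IP + LC tumors. LC replicate 1 was well below the other 2 LC tumors, but still 2.33 times the highest IP + LC tumor. Fmo2 fell from 562 ± 251 to 95.7 ± 22.3 CPM (log2 fold change −2.56, SE 0.38, adjusted p = 0.00221). Fmo1 stood at 217, 316 and 314 CPM and 38.4, 16.3 and 33.4 CPM (log2 fold change −3.28, SE 0.33, adjusted p = 0.000859), with its groups far apart. Fmo5 fell by 2.30 on the log2 scale (adjusted p = 0.00408). Fmo6, with 1, 14 and 12 UMIs in the LC and 0, 1 and 3 UMIs in the IP + LC tumors, and Fmo4, with 0, 4 and 4 and 0, 0 and 0 UMIs, were below the filter.

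Aldehyde oxidases are molybdenum enzymes that oxidize aldehydes and nitrogen heterocycles. Aox3 stood at 39.6, 121 and 121 CPM in the LC tumors and at 18.1, 9.34 and 21.8 CPM in the IP + LC tumors, with LC replicate 1 closer to the IP + LC tumors than to the other LC tumors (log2 fold change −2.57, SE 0.45, adjusted p = 0.00429). Aox1 stood at 24.1, 34.5 and 29.7 CPM and 10.2, 10.5 and 13.1 CPM (log2 fold change −1.41, SE 0.27, adjusted p = 0.00598), with its LC tumors close together. Aox2 and Aox4, in the same cluster on chromosome 1 (chr1:58029931-58380259), were not tested.

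Of the aldehyde dehydrogenases, 18 were in the tables and 13 were tested, of which 9 fell, 2 rose and 2 did not pass. Aldh1a1, a retinaldehyde dehydrogenase, was the most abundant and stood at 541, 1284 and 1245 CPM in the LC tumors and at 249, 144 and 244 CPM in the IP + LC tumors. LC replicate 1 held 0.43 of the mean of the other LC tumors, and the groups did not overlap. Aldh1a1 fell from 1023 ± 418 to 213 ± 59.3 CPM (log2 fold change −2.27, SE 0.37, adjusted p = 0.00335). Its neighbor Aldh1a7 fell likewise, from 87.8, 180.2 and 165 CPM to 31.2, 19.8 and 36.3 CPM (log2 fold change −2.34, SE 0.33, adjusted p = 0.00183). Aldh3a1, which oxidizes aldehydes of lipid peroxidation, showed the largest decrease of the class, from 22.4, 48.6 and 39 CPM to 2.90, 2.92 and 10.2 CPM (log2 fold change −2.85, SE 0.48, adjusted p = 0.00365).

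The remaining decreases were in enzymes of ordinary metabolism. Aldh6a1, of valine breakdown, changed by −1.97 (adjusted p = 0.00146) on the log2 scale. Aldh1a2, which makes retinoic acid, changed by −1.11 (adjusted p = 0.0218), Aldh4a1, of proline breakdown, by −1.05 (adjusted p = 0.0301), and Aldh1l1, a cytosolic folate enzyme, by −0.99 (adjusted p = 0.0713). Aldh7a1, of lysine breakdown, changed by −0.87 (adjusted p = 0.0177), and Aldh3a2, the fatty aldehyde dehydrogenase, by −0.72 (adjusted p = 0.0338). Several of these calls depended on single tumors. Without IP + LC replicate 2, Aldh1a2 (adjusted p = 0.103), Aldh7a1 (0.109), Aldh3a2 (0.151), Aldh4a1 (0.132) and Aldh1l1 (0.274) no longer passed in the edgeR test, and neither did Cyp2j6 (0.15) and Cyp4f13 (0.118). Without IP + LC replicate 1, Aldh1l1 (0.11), Aldh3a2 (0.147), Aldh4a1 (0.122) and Cyp4f13 (0.14) did not pass. Leaving out LC replicate 2 ended the calls of Aldh1l1 (0.152), Aldh3a2 (0.105), Cyp2j6 (0.101) and Cyp4f13 (0.12), leaving out LC replicate 3 ended those of Aldh1l1 (0.204) and Aldh4a1 (0.106), and leaving out IP + LC replicate 3 ended those of Aldh1l1 (0.152) and Cyp4f13 (0.106). In other fits, Aldh1l1 was lost by DESeq2 (adjusted p = 0.164), with library size alone (0.108) and with no filter (0.208), and with no filter Aldh3a2 (0.149), Aldh4a1 (0.122), Cyp2j6 (0.129) and Cyp4f13 (0.133) were lost as well. Counts thinned to the smallest library lost Aldh1a2 (0.129), Aldh3a2 (0.133) and Cyp4f13 (0.190). All these values kept their sign. The other 26 of the 33 enzymes that fell were called without any 1 of the 6 tumors. Aldh3b1 (log2 fold change −0.46, adjusted p = 0.132) and Aldh16a1 (log2 fold change 0.26, adjusted p = 0.552) did not pass, but Aldh3b1 passed without LC replicate 1 (adjusted p = 0.0950) or LC replicate 3 (0.0897).

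Aldh18a1 and Aldh9a1 rose. Aldh18a1, which makes the precursor of proline and ornithine and is not known for foreign compounds, stood at 36.2, 8.62 and 7.63 CPM in the LC tumors and at 40.6, 51.4 and 47.9 CPM in the IP + LC tumors. LC replicate 1 was near the IP + LC tumors and 4.45 times the mean of the other 2 LC tumors, although the groups did not overlap (log2 fold change 1.67, SE 0.47, adjusted p = 0.0296). The log2 fold change was 2.52 when LC replicate 1 was left out (adjusted p = 4.21e-06). It was no longer called without LC replicate 2 (1.30, adjusted p = 0.144), LC replicate 3 (1.28, adjusted p = 0.104) or IP + LC replicate 2 (1.58, adjusted p = 0.119). Aldh9a1, an enzyme of carnitine synthesis, stood at 43, 51.7 and 41.5 CPM and at 66.7, 78.2 and 67.5 CPM (log2 fold change 0.63, SE 0.20, adjusted p = 0.0448). It was no longer called without IP + LC replicate 1 (adjusted p = 0.102), IP + LC replicate 2 (0.167) or LC replicate 3 (0.14), nor by DESeq2 (0.111).

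**Figure D2:**
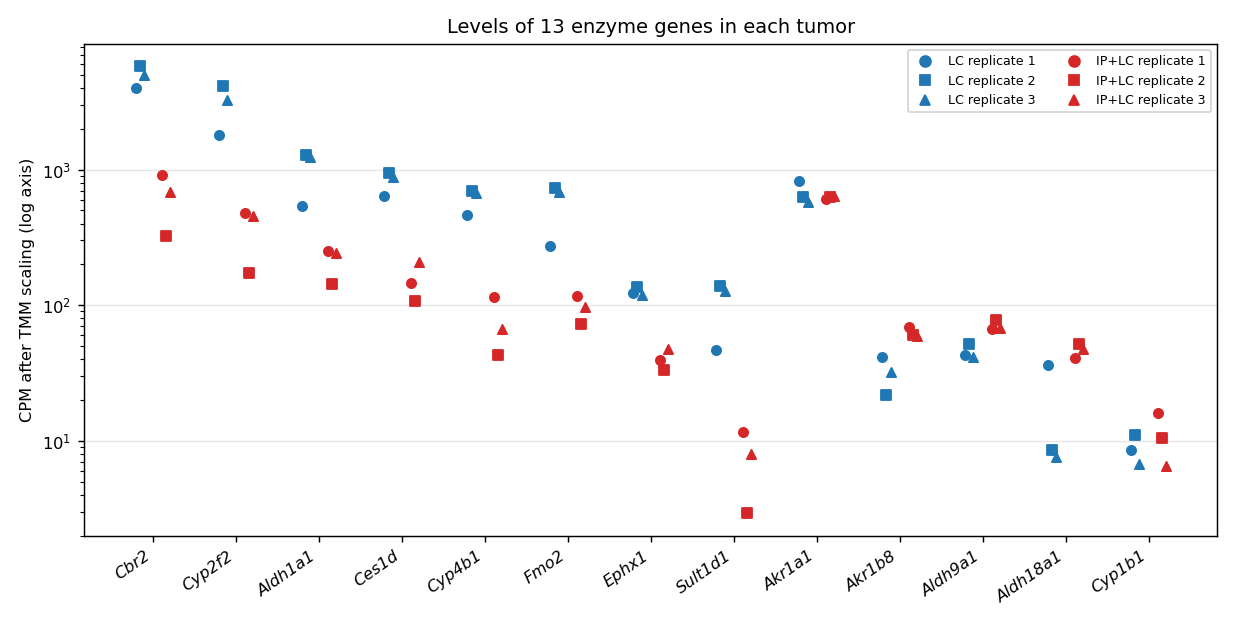
CPM (y axis, log scale) of 13 of the enzymes (x axis) in each of the 6 tumors, with 1 symbol for each tumor. The 8 enzymes from Cbr2 to Sult1d1 are lower in every IP + LC tumor than in any LC tumor, Akr1a1 and Cyp1b1 overlap, and Akr1b8, Aldh9a1 and Aldh18a1 are higher in every IP + LC tumor.

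Epoxide hydrolases open the reactive epoxides that P450 enzymes form. Ephx1, the microsomal form, stood at 124, 137 and 119 CPM in the LC tumors and at 39.2, 33.3 and 47.9 CPM in the IP + LC tumors. Within each group the tumors were close, LC replicate 1 included, and the groups were far apart (log2 fold change −1.66, SE 0.21, adjusted p = 0.00137). Ephx2, the soluble form, was below the filter with 3, 17 and 11 UMIs and 3, 6 and 3 UMIs. Carboxylesterases, which cleave esters and amides, gave 11 genes, and the 3 that were tested fell. Ces1d stood at 637, 950.3 and 886 CPM in the LC tumors and at 145, 107 and 208 CPM in the IP + LC tumors, with no overlap, and fell from 824 ± 165 to 153 ± 50.7 CPM (log2 fold change −2.43, SE 0.29, adjusted p = 0.0012). Ces2g changed by −2.31 (adjusted p = 0.00354) and Ces1f by −2.25 (adjusted p = 0.00642) on the log2 scale. Ces1f rests on 4, 2 and 5 UMIs in the IP + LC tumors. Of all tested enzymes, 10 had under 10 UMIs in some IP + LC tumor.

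Carbonyl reductases reduce ketones, quinones and aldehydes. Cbr2, a mitochondrial form typical of lung and club cells, was the most abundant enzyme of the whole set in every LC tumor, and by its mean also in the IP + LC group, where Akr1a1 was above it in replicate 2. It stood at 4000.2, 5772 and 5009 CPM in the LC tumors and at 911, 322 and 685 CPM in the IP + LC tumors. LC replicate 1, the lowest of its group, was 4.39 times the highest IP + LC tumor. Cbr2 fell from 4927 ± 889 to 639 ± 297 CPM (log2 fold change −2.95, SE 0.39, adjusted p = 0.00149). Cbr1, the cytosolic form, stood at 63.7, 66.6 and 67.8 CPM and 16, 14 and 29 CPM and fell as well (log2 fold change −1.76, SE 0.28, adjusted p = 0.00314). Cbr3, which lies beside Cbr1 on chromosome 16, gave −0.33 (adjusted p = 0.534), and Cbr4, of mitochondrial fatty acid synthesis, gave −0.78 (adjusted p = 0.119), and neither passed.

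Of 15 aldo-keto reductases, which reduce aldehydes and ketones with NADPH, 8 were tested, of which 1 fell, 1 rose and 6 did not pass (median log2 fold change 0.11). Akr1a1, the aldehyde reductase of most tissues, stood at 828, 632 and 572 CPM in the LC tumors and at 608, 625 and 634 CPM in the IP + LC tumors. The groups overlapped, and the 3 IP + LC tumors lay within 4.11% of each other's level. Its log2 fold change was −0.12 (SE 0.21, adjusted p = 0.705). Akr1b3, the aldose reductase, gave −0.02 (adjusted p = 0.958), Akr1e1 −0.12 (adjusted p = 0.739) and Akr1c13 0.24 (adjusted p = 0.649). The signs of the small values of Akr1a1, Akr1b3 and Akr1e1 depended on the scaling, and with library size alone all 3 were above 0.

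Akr1b8, a reductase related to aldose reductase, rose. It stood at 41.3, 21.9 and 32.2 CPM in the LC tumors and at 68.9, 60.1 and 59.5 CPM in the IP + LC tumors, with the groups apart (log2 fold change 1.03, SE 0.25, adjusted p = 0.0172). It was the only one of the 3 that was called without any 1 of the 6 tumors and in all 16 alternative settings. Its neighbor Akr1b10 stood at 34.4, 33.7 and 44.1 CPM and 47.1, 54.9 and 47.9 CPM, also without overlap, but did not pass (log2 fold change 0.41, SE 0.21, adjusted p = 0.176). Akr1c14, a 3α-hydroxysteroid dehydrogenase, was the only Akr1 gene that fell, from 41.3, 46.2 and 87.3 CPM to 12.3, 7.59 and 10.9 CPM (log2 fold change −2.54, SE 0.36, adjusted p = 0.0018). Akr1c12, in the same cluster of 9 genes on chromosome 13, had 13.8, 3.92 and 2.54 CPM and 13.1, 13.4 and 10.9 CPM. LC replicate 1 was at the level of the IP + LC tumors, 4.27 times the mean of the other LC tumors, and the gene did not pass (log2 fold change 1.17, adjusted p = 0.123), whereas without LC replicate 1 it did (log2 fold change 1.92, adjusted p = 0.00295). With library size alone as the scaling, Akr1b10 (0.57, adjusted p = 0.0687) and Akr1c12 (1.33, adjusted p = 0.0828) passed too, and Akr1c12 also passed with limma voom (1.46, adjusted p = 0.0519) and with no filter (1.26, adjusted p = 0.0799).

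Of the conjugating enzymes, 16 sulfotransferases and 8 glucuronosyltransferases carried matching names. Sult1d1, which sulfates catecholamines and other phenols, stood at 46.5, 139 and 127 CPM in the LC tumors and at 11.6, 2.92 and 7.99 CPM in the IP + LC tumors. Its lowest LC tumor was replicate 1, and no value overlapped (log2 fold change −3.86, SE 0.51, adjusted p = 0.00149). Sult1a1, the phenol sulfotransferase, stood at 39.6, 65 and 50.8 CPM and 8.70, 8.76 and 10.2 CPM (log2 fold change −2.52, SE 0.27, adjusted p = 0.000859), with the IP + LC values close together and no overlap. These were the only sulfotransferases tested. The 8 Ugt genes, all of family 2, had 4, 3 and 3 UMIs together in the IP + LC tumors and at most 18 UMIs in an LC tumor, so that no statement on them was possible at this depth.

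**Figure D3:**
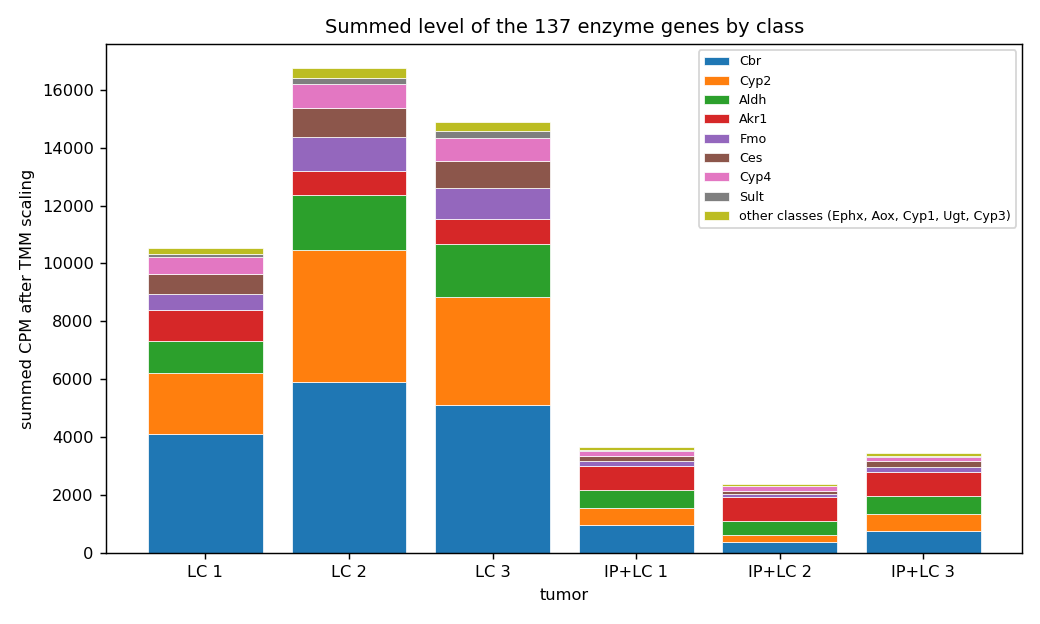
Summed CPM of the 137 enzymes (y axis, linear from 0) in each of the 6 tumors (x axis), with bars stacked by enzyme class. The bars reach 10533, 16746 and 14893 CPM in the LC tumors and 3650.1, 2381 and 3446 CPM in the IP + LC tumors, and the Akr1 part is of like height in all 6, with means of 913 ± 137 CPM (LC) and 846 ± 2.17 CPM (IP + LC).

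Summed by class, the ratio of the LC to the IP + LC mean was 7.74 for Sult, 7.36 for Cyp2, 7.26 for Cbr, 6.95 for Fmo, 5.29 for Ces, 4.54 for Cyp4, 4.48 for Aox, 3.17 for Ephx, 2.82 for Aldh, 1.08 for Akr1 and 0.982 for Cyp1. Cyp3 and Ugt held too few UMIs for a ratio. The sums were not tested, and those of Cbr, Cyp2, Ces, Ephx and Akr1 are set mostly by 1 gene in every tumor (Cbr2, Cyp2f2, Ces1d, Ephx1 and Akr1a1). The 7 most abundant enzymes of the LC group were Cbr2, Cyp2f2, Aldh1a1, Ces1d, Akr1a1, Cyp4b1 and Fmo2 in this order, of which Aldh1a1, Ces1d, Akr1a1, Cyp4b1 and Fmo2 followed each other within their spread. In the IP + LC group the order was Cbr2, Akr1a1, Cyp2f2, Aldh1a1 and Ces1d, and Cbr2 (639 ± 297 CPM) and Akr1a1 (622 ± 12.9 CPM) did not differ beyond the spread of Cbr2. Akr1a1 accounted for 7.86%, 3.78% and 3.84% of the UMIs of the set in the LC tumors and for 16.7%, 26.2% and 18.4% in the IP + LC tumors, with Wilson intervals within 1.35 percentage points. Cbr2 and Cyp2f2 together went from 55.2%, 59.2% and 55.5% to 38.0%, 20.8% and 33.1%. Without these 2 genes, the set still summed to 4722, 6840.4 and 6625 CPM in the LC tumors and to 2264, 1887 and 2307 CPM in the IP + LC tumors.

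LC replicate 1 and IP + LC replicate 2 recur at the low end. Of the 33 enzymes that fell, 23 were lower in LC replicate 1 than in both other LC tumors, and 20 had their lowest IP + LC value in replicate 2. How often these tumors were lowest over all genes tested was not counted, so the counts do not set the enzymes apart. The level in LC replicate 1 relative to the mean of the other LC tumors was 0.33 for Aox3, 0.35 for Sult1d1, 0.39 for Fmo2 and Cyp2a5, 0.49 for Cyp2f2 and 0.97 for Ephx1. Some enzymes were highest there, among them Akr1a1 at 1.38, Akr1c12 at 4.27 and Aldh18a1 at 4.45. Of the 10 club cell markers, 5 were also lowest in LC replicate 1 among the LC tumors. Scgb1a1, which makes up most of their sum, was not, and the other 9 summed to 7405, 10578 and 8216 CPM in the LC tumors and to 1285, 741 and 1006 CPM in the IP + LC tumors, with replicate 2 again lowest. For 100 UMIs of Scgb1a1 there were 4.35, 9.33 and 8.49 UMIs of Cyp2f2 in the LC tumors. In the IP + LC tumors there were 10.1, 6.43 and 7.61 UMIs of Cyp2f2 for 100 UMIs of Scgb1a1, a range that overlaps that of the LC tumors. For Aldh1a1 the same ratio was 1.30, 2.90 and 3.24 in the LC tumors and 5.28, 5.38 and 4.09 in the IP + LC tumors, higher in every IP + LC tumor. LC replicate 1 also held a sum of 492 CPM for 8 proliferation markers, against 121 and 133 CPM in the other LC tumors and 998 to 1191 CPM in the IP + LC tumors. How these values bear on the enzymes was not tested.

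Most markers of normal lung cells fell along with the enzymes. All 9 tested club cell markers were lower in the IP + LC group (median log2 fold change −3.22), as were 10 of 10 ciliated cell markers (−2.38), 9 of 10 type 2 alveolar markers (−1.86), 8 of 10 type 1 alveolar markers (−1.48), 10 of 10 endothelial markers (−2.03), 8 of 10 fibroblast markers (−1.51, with Col1a1 higher at 1.42), 8 of 8 smooth muscle markers (−1.99), 6 of 6 mesothelial markers (−2.20), 8 of 8 alveolar macrophage markers (−2.85) and 5 of 6 adipocyte markers (−2.70). Summed type 2 alveolar markers ranged from 36697 to 46036 CPM in the LC tumors and from 6711 to 12094 CPM in the IP + LC tumors, and endothelial markers from 2016 to 3555 CPM and from 566 to 765 CPM. Of 10 macrophage markers, 4 were higher and 1 was lower (median 0.71). Their sum was lower in every IP + LC tumor (8045 to 9718 CPM) than in any LC tumor (13263 to 15761 CPM), but it is mostly Lyz2, and the other 9 summed to 2344, 889 and 664 CPM in the LC tumors and to 2359, 2970.4 and 2675 CPM in the IP + LC tumors, higher in every IP + LC tumor. In that sum without Lyz2, LC replicate 1 and IP + LC replicate 1 were nearly equal. Of the proliferation markers, 7 of 8 were higher (median 1.78). No defining marker of the lung cell types was at 0 in all tumors. The part of these cell markers in the result for the enzymes was not tested.

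**Figure D4:**
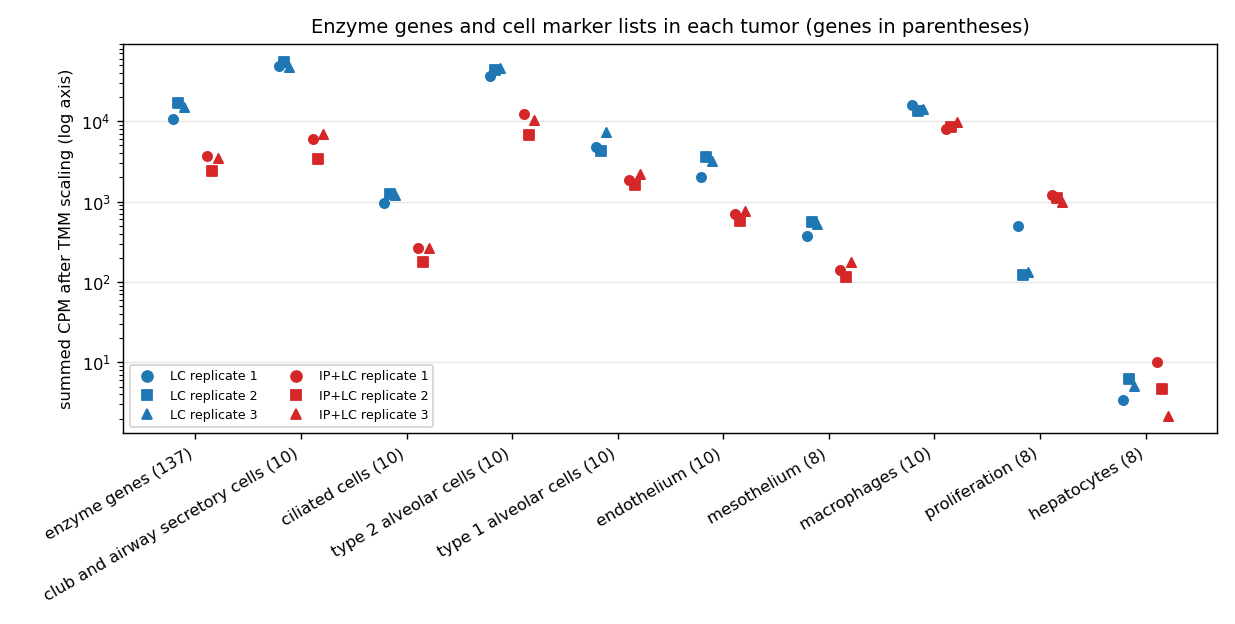
Summed CPM (y axis, log scale) of the 137 enzymes and of 9 marker lists in the 6 tumors, with 1 symbol for each tumor and the number of genes in each list in parentheses. Sums of the enzymes and of club, ciliated, alveolar, endothelial and mesothelial markers are lower in every IP + LC tumor than in any LC tumor, the macrophage sum is lower too but turns higher without Lyz2, the proliferation sum is higher in every IP + LC tumor, and hepatocyte markers stay near the lowest usable level. Without Lyz2, the macrophage sums of LC replicate 1 (2344 CPM) and IP + LC replicate 1 (2359 CPM) are nearly equal.

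Of 65 further genes in the tables that supply, control or complement these enzymes, 52 were tested, 21 were lower (40.4%) and 4 were higher (7.69%), against 19.6% and 16.8% of all genes tested (median log2 fold change −0.28 against 0.02). With library size alone as the scaling, 8 were higher in place of 4, with 20 lower in place of 21. The count that was higher also rested on single tumors, namely 10 when LC replicate 1 was left out, 1 when IP + LC replicate 1 was, and 2 when either IP + LC replicate 3 or LC replicate 2 was. Of 6 genes that supply P450 with electrons or heme, 3 fell, namely Cyb5a, Por and Alas1. Cyb5a, cytochrome b5, stood at 584, 651 and 625 CPM in the LC and 220.4, 151 and 230.2 CPM in the IP + LC tumors (log2 fold change −1.63, SE 0.22, adjusted p = 0.00167). Por, the P450 reductase on which all microsomal P450 depend, changed by −0.90 (adjusted p = 0.0113), and Alas1, the first enzyme of heme synthesis, by −0.91 (adjusted p = 0.0131).

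Among receptors and their partners, 2 of 10 tested genes fell and 1 rose, shares of 20% and 10% that are near or below those of all genes tested (19.6% and 16.8%). Ahr, the aryl hydrocarbon receptor, stood at 56.8, 58 and 73.7 CPM in the LC tumors and at 34.1, 22.2 and 34.9 CPM in the IP + LC tumors, without overlap (log2 fold change −1.07, SE 0.24, adjusted p = 0.0131). Cebpa, a factor of alveolar and liver cell differentiation, changed by −1.41 (adjusted p = 0.00353), and Cebpb, of the acute phase response, by 1.06 (adjusted p = 0.0188). Arnt, the partner of Ahr, and Nfe2l2, which encodes NRF2, did not pass, with 0.20 (adjusted p = 0.604) and 0.45 (adjusted p = 0.125). Nqo1, a common target of NRF2, gave −0.21 (adjusted p = 0.716). The receptors Nr1i2 and Ppara were below the filter.

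Of 15 other phase I enzymes tested, 9 fell (60%, against 19.6% of all genes tested). They were led by Pon1, a paraoxonase, with 60.3, 127 and 120.3 CPM and 9.43, 8.76 and 13.1 CPM (log2 fold change −3.32, SE 0.34, adjusted p = 0.000859). Of 6 other phase II enzymes, 2 fell (33.3%). Inmt, a methyltransferase abundant in lung and also on the fibroblast list, stood at 1598, 2616 and 2470.2 CPM in the LC tumors and at 268, 133 and 174 CPM in the IP + LC tumors (log2 fold change −3.54, SE 0.34, adjusted p = 0.000821). Of 7 genes that supply cofactors for conjugation, 2 fell (28.6%) and 1 rose (14.3%), against 19.6% and 16.8% of all genes tested. Papss2, which makes the sulfate donor, changed by −1.41 (adjusted p = 0.0305). It was not called without IP + LC replicate 1 (adjusted p = 0.104), IP + LC replicate 2 (0.154), LC replicate 2 (0.137) or LC replicate 3 (0.104). Ugdh, which makes the glucuronic acid donor, changed by 0.82 (adjusted p = 0.061) and, of the 6 fits that each left out 1 tumor, passed only in the one without LC replicate 1 (it also missed with thinned counts, adjusted p = 0.158). Of 8 efflux transporters, 3 fell (37.5%) and 2 rose (25%), where 1 gene moves a share of so short a list by much. Abcg2 changed by −1.53 (adjusted p = 0.015), Abcc1 by 0.94 (adjusted p = 0.03) and Abcc4 by 1.00 (adjusted p = 0.0596). Abcc1 was not called without IP + LC replicate 1 (adjusted p = 0.11), and Abcc4 was not called without IP + LC replicate 1 (0.115), IP + LC replicate 3 (0.181) or LC replicate 2 (0.222), nor by DESeq2 (0.106).

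The 87 enzymes below the filter held 53, 200 and 266 UMIs in the LC tumors and 72, 77 and 80 UMIs in the IP + LC tumors in all. Of these, 3 (Cyp2j8, Cyp2w1 and Cyp4a10) had no UMI in any tumor, 17 had 1 UMI in all and 54 never exceeded 3 UMIs. Among the 9 that reached 10 UMIs in a tumor, Cyp2e1, which oxidizes ethanol, had 4, 17 and 25 UMIs in the LC and 3, 0 and 5 UMIs in the IP + LC tumors. Ces1e had 3, 16 and 11 and 2, 0 and 4 UMIs, Cyp2j9 had 2, 14 and 9 and 2, 1 and 1 UMIs, and Akr1c19 had 3, 6 and 13 and 0, 2 and 1 UMIs. In LC replicate 1, which was sequenced less deeply, the counts of these 4 genes were also low. Aldh1l2, the mitochondrial relative of Aldh1l1, went the other way, with 0, 0 and 1 UMIs in the LC and 9, 5 and 6 UMIs in the IP + LC tumors. Of the 87, 35 had more UMIs in LC replicate 3 than in any other tumor, and this library also had UMIs for the most genes, 24293 against 15182 to 20895 elsewhere.

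The reads of some enzymes may be shared with close copies. Of the 50 tested enzymes, 16 had a stretch of at least 81 bases, the read length, that matched another gene at 95% identity or more, but for only 3 of them did it reach the last 500 bases, near which the UMI is placed. These were Cyp2a5, with 47.2% of the last 500 bases shared with Cyp2a4 and a pseudogene, Cyp4b1, with 36% shared with the pseudogene Cyp4b1-ps2, and Akr1c12, with 13.2% shared with Akr1c13. Akr1b8 shared no such stretch with Akr1b10 in its last 500 bases. Exons of Aldh4a1 were overlapped by another annotated gene over 32.5% of their length. The values of these genes may hold molecules of the copy. By position, 103 of the 137 enzymes lay in 21 clusters with gaps under 500 kb, and 14 of these clusters held an enzyme that fell, and none of the 14 held one that rose.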

How the data were processed

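Tumor RNA of 3 LC and 3 IP + LC mice had been made into 3′-end libraries with a UMI of 10 nucleotides and an insert read of 81 bp. Per the submitters' processing notes, the authors used UMI-tools 1.1.1, Trim Galore 0.6.7, HISAT2 2.2.1, the build GRCm38 and featureCounts 2.0.1. The deposited values are raw UMI counts by gene, with 1 table for each tumor. Use of the strand and the annotation release are not given in the sources used here.

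Counts were tested in R 4.3.3 with edgeR 4.0.16 (filterByExpr with a minimum count of 10 and a minimum total of 15, TMM, quasi-likelihood test, group as the only term). The Benjamini-Hochberg adjustment ran over 11240 genes, with a limit of 0.1. CPM values are TMM scaled. Depth was 592733 UMIs in LC replicate 1 and 1336919 UMIs or more elsewhere, which limits genes near 3 UMIs. Gene positions and copies were taken from GENCODE M21 with blastn 2.17.0+, and promoters from RefSeq (GRCm38.p6).

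Named genes were, in each class, the most abundant member, the 2 largest decreases and the 2 largest increases past the limit, every member that rose and the 5 most abundant that did not pass, and in each list of other pathway genes the one with the smallest p and any that rose. Other members are named to account for the class. The result of 1 gene that these rules name is not reported here. The ratios to Scgb1a1 were chosen after the values were seen. The members and lists were chosen with earlier results of these data known. Alternatives were DESeq2 1.42.0, limma 3.58.1 (voom), other scalings and filters, thinned counts, a limit of 0.05, a replicate block and leaving out each tumor. The code was tested on simulated data.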

Additional observations from a re-analysis of the deposited data

How the results depend on the processing

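The count of enzymes that fell was within 1.5 times of 33 under all 16 alternatives tried and at a limit of 0.05, and 25 of the 33 were called in every alternative that tested them. Leaving out 1 tumor gave 29 to 38. The count that rose (3) was 5 with library size alone, 5 with no filter and 1 to 4 without 1 tumor. The median log2 fold change (−1.26) was −1.10 with at least 10 UMIs in every library, −1.10 with library size alone, −1.59 with no filter, −1.67 with thinned counts and −1.75 to −1.22 without 1 tumor, where filters and tumors left out also change which genes are tested. Library size alone moved the median of all genes from 0.02 to 0.18. Other pathway genes that rose (4) numbered 8 with library size alone, 7 with limma voom, 2 with thinned counts, 2 at a limit of 0.05 and 1 to 10 without 1 tumor, with 10 when LC replicate 1 was left out. The calls over all genes ranged from 2265 without IP + LC replicate 2 to 6691 without LC replicate 1, against 4088. Signs turned for genes that did not pass, among them, without 1 tumor, Cyp4f16, Cyp4f18, Cbr3 and Akr1c13. With library size alone Akr1a1 was 0.0229, Akr1e1 0.0426 and Akr1b3 0.13, Akr1b3 was 0.0011 with limma voom and 0.0874 with no filter, and without 1 tumor the ranges were −0.24 to 0.0570 for Akr1a1, −0.16 to 0.18 for Akr1b3, −0.26 to 0.0318 for Akr1e1 and −0.00894 to 0.59 for Cyp1b1. The cause was not tested. Equal replicate numbers did not pair the tumors (correlations of deviations 0.0260, −0.120 and 0.112, and not every tumor correlated best with its own number), and with the replicate block 32 enzymes were lower and 3 higher (median −1.27, with Aldh1l1 lost at an adjusted p of 0.114), 19 and 4 other pathway genes were lower and higher, and 3410 of all genes were called. Depth limits the 87 untested enzymes, since 3 UMIs were worth 5.17 CPM in LC replicate 1.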
